A study of Mus musculus with 15 samples.

Results

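The neurotrophin system was followed through 6 genes, found by symbol in the gene count table, out of 21889 genes in that table. They are the ligand genes Bdnf and Ntf3, the receptor genes Ntrk2, Ntrk3 and Ngfr, and Sort1, which encodes a sorting receptor. All 6 were among the 15259 genes that passed the filter on low counts. The data are poly(A) RNA-seq counts from mouse cerebellum in 15 libraries, 3 in each of 5 groups. Granule neuron precursors, which proliferate in the outer layer of the young cerebellum before they become granule neurons, were taken at E15.5 from Math1-GFP mice and at P1, P7 and P14 from wild-type (WT) mice. The group MB holds medulloblastoma cells, a cerebellar tumour, from Ptch1 heterozygous mice of an age the labels do not give. Ptch1 encodes the receptor that restrains Sonic hedgehog signalling. All cells were purified on Percoll, a density gradient, and no group is labelled with a drug or other treatment. The design set out to find genes that change as granule neuron precursors differentiate and to compare the precursors with the tumour cells.

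Neurotrophins are secreted growth factors that are made as precursors and cut to their mature form. Mature BDNF acts on TrkB, the tyrosine kinase encoded by Ntrk2, and NT-3, the product of Ntf3, acts mainly on TrkC, encoded by Ntrk3. The neurotrophin receptor p75, encoded by Ngfr, binds all mature neurotrophins, and together with sortilin, the product of Sort1, it binds the uncut precursors. In the cerebellum these factors are known for their roles in the survival, migration and maturation of granule neurons.

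The libraries held between 12597472 and 43443132 gene counts. Age and genotype differ together between E15.5 and every later age and cannot be told apart there. The labels do not say whether the libraries of a group came from separate animals or pools, so the tests measure only the spread between these libraries. E15.5 replicates 1 and 3, all of P7 and MB replicate 1 stood apart from the other libraries by near-absent gene counts of Tsnax. This split, called the counting set here, is the same as that between P7 and its neighbouring ages, so set and age cannot be told apart in P7 against P1 or P14 against P7. A comparison inside 1 counting set rests on E15.5 replicate 2 alone, on MB replicate 1 alone against P7, and on MB replicates 2 and 3 against P14. A lone library is then assumed to vary like the other groups, so these are tests with fewer libraries. For each of the 6 genes the ratio of gene-table to transcript-table counts overlapped between the sets. Atoh1, a transcription factor of granule neuron precursors, was present in every group, from 10.9 to 13.1 CPM (counts scaled to a common library size) at P14 up to 236 to 322 CPM in MB. Gabra6, a marker of mature granule neurons, was at 0 in all 3 E15.5 libraries. It ran from 1.12 to 102 CPM at P1, 2.54 to 10.3 at P7 and 161 to 202 at P14. Cbln3, also on the granule lineage list, ran from 5.45 to 159 CPM at P1, 9.01 to 15.1 at P7 and 243 to 261 at P14. For both genes the highest P1 value was above every P7 library. The part of granule neuron maturity in the comparisons with P1 and P14 was not tested. Markers of other cell types were also present. The summed level of 10 astroglial markers, all detected in every library, was 335 to 504 CPM at E15.5, 2930 to 4570 at P1, 2340 to 4740 at P7, 4120 to 5370 at P14 and 1720 to 2270 in MB. Summed oligodendrocyte markers were 6670 to 7200 CPM at P14. P1 replicate 3 held 4300 CPM of them, against 642 and 1080 in P1 replicates 1 and 2. Its astroglial sum was 4570 CPM, against 2930 and 3260. The part of these differences in results that rest on P1 replicate 3 was not tested. Summed choroid plexus markers were 97.2 to 379 CPM at E15.5, 52.4 to 2030 at P7, 5190 to 8580 at P14 and 54.9 to 279 in MB. In P1 replicates 1, 2 and 3 they were 407, 10500 and 3990 CPM. Their part in the results was not tested.

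Levels per length set the genes in order. At E15.5 the mean levels in CPM per kilobase of the longest transcript were 38.0 for Sort1, 26.5 for Ntrk2, 26.3 for Ntf3, 8.86 for Ngfr, 6.85 for Ntrk3 and 0.367 for Bdnf. The ligand Ntf3 thus stood next to Sort1 and Ntrk2 at that age. Per kilobase of all annotated exonic bases Ntrk2 was at 16.4, below Ntf3. In MB the order was Ntrk3 at 83.8, Ngfr at 29.6, Sort1 at 21.1, Ntrk2 at 14.2, Bdnf at 0.548 and Ntf3 at 0.203 CPM per kilobase. Ntrk3 led in MB and stood above Bdnf alone at E15.5, while Ntf3 was last in MB.

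**Figure D1:**
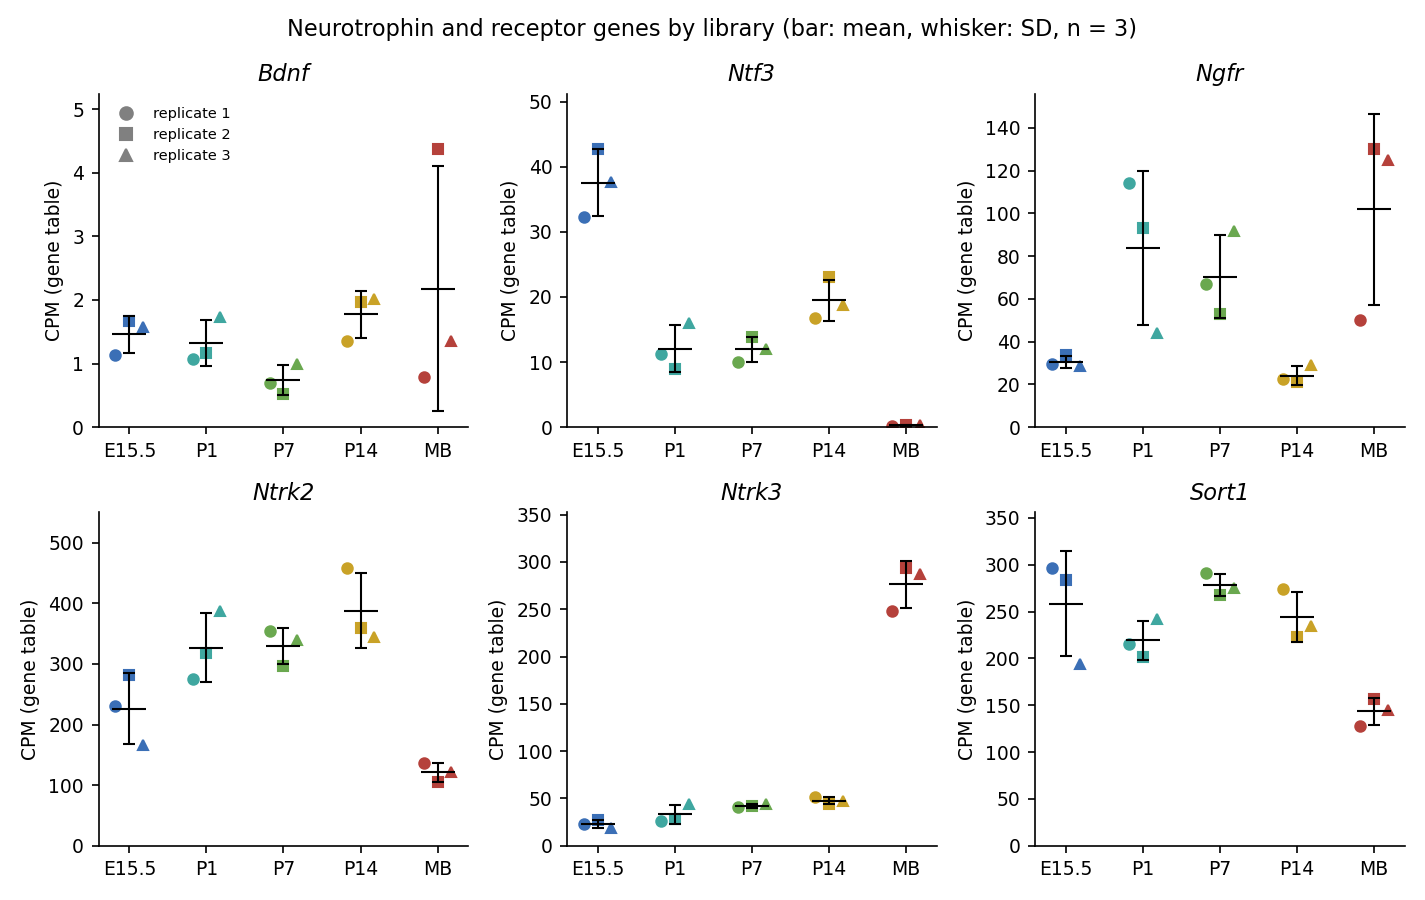
Level of each of the 6 genes in CPM (y axis, a separate scale per gene) in every library of the 5 groups (x axis); marker shapes are replicates, bars are means and whiskers are SD (n = 3). All Ntf3 values in MB lie at or below 0.360 CPM, and all Ntrk3 values in MB lie at or above 248 CPM.

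Ntf3 (ENSMUSG00000049107, chr6:126051431-126116762, mm9, minus strand) was the ligand with the larger changes. It read 32.3, 42.7 and 37.7 CPM in the 3 E15.5 libraries and 11.2, 8.88 and 16 CPM at P1. At P7 it read 10, 13.8 and 12 CPM, and at P14 it read 16.8, 23.0 and 18.7 CPM. Every E15.5 library was above every postnatal one, P1 and P7 overlapped, and the P14 libraries lay above both. Among the 6 genes, 3 were called higher and 1 lower in P1 against E15.5 by edgeR's quasi-likelihood test at a Benjamini-Hochberg adjusted p (FDR) under 0.05. Of all genes tested, 25.4% were called higher and 20.9% lower. Ntf3 was the one that fell, 3.12-fold (log2 fold change -1.64, SE 0.24, FDR 8.77e-05). At P14 it was still below E15.5 (log2 fold change -0.95, FDR 0.00411). The difference of P14 from P1, 0.70 on the log2 scale, did not pass (FDR 0.0778). It passed without P1 replicate 3 (0.96), with DESeq2 (0.70) and inside 1 counting set (0.70). More genes of the whole table were called there as well. The share was 17.5% without P1 replicate 3 and 18.2% inside 1 counting set, beside 8.94% in the main fit. DESeq2 called 2407 of 21889 genes, beside 1364 of 15259 in the main fit.

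In MB, Ntf3 transcripts were close to the limit of counting. The 3 tumour libraries held 6, 11 and 9 Ntf3 counts, or 0.238, 0.269 and 0.360 CPM. No tumour library came near any library of the age series. Ntf3 was 41.1-fold lower in MB than at P7 (log2 fold change -5.36, SE 0.31, FDR 1.91e-08) and 66.9-fold lower than at P14 (log2 fold change -6.06, SE 0.32, FDR 7.17e-09). In bulk RNA, fewer cells of a type and less RNA per cell cannot be told apart, here and in every comparison that follows. Inside 1 counting set, where MB replicate 1 alone stands against P7, the difference was -5.63 on the log2 scale. In MB against P7, 2 of the 6 genes were called higher and 3 lower, beside 13.7% and 20.7% of all genes. In MB against P14 the counts were also 2 higher and 3 lower, beside 22.9% and 27.2% of all genes.

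Bdnf (ENSMUSG00000048482, chr2:109532593-109567164, mm9, plus strand) was scarce throughout, with 19 to 179 counts a library. It read 1.13, 1.67 and 1.58 CPM at E15.5, 1.07, 1.16 and 1.73 at P1, 0.701, 0.524 and 1.00 at P7, and 1.35, 1.96 and 2.01 at P14. The P7 libraries were the lowest, below all libraries of the other ages. No tested pair of ages passed for Bdnf, and P7 against E15.5 was not among the pairs tested. The test over the 4 ages gave an FDR of 0.195. That test called 4 of the 6 genes, beside 55.7% of all genes. The nearest to the threshold among the tested pairs was P14 against P7, with a log2 fold change of 1.26 (95% interval 0.16 to 2.36, FDR 0.124). It passed in a fit of those 2 groups alone (1.27), where 25.9% of all genes were called, beside 10.3% in the main fit.

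In MB the Bdnf values were 0.793, 4.37 and 1.36 CPM, so that MB replicate 2 stood far above the other two. MB was called higher than P7 (log2 fold change 1.58, SE 0.52, FDR 0.0264). Without MB replicate 2 the difference was 0.55 with an FDR of 0.361, inside 1 counting set it was 0.10, and the call was also lost without P7 replicate 1 (1.60) or 2 (1.38). Against P14 the difference was 0.32 (FDR 0.616), and without MB replicate 2 it was -0.72 (FDR 0.173). The 3 Bdnf transcripts in the table overlap, so that a read can count for several, and their fitted changes from P7 to MB lay at 1.49, 1.57 and 1.65 on the log2 scale.

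Ntf5, which encodes the further TrkB ligand NT-4, was near absent, with 0 to 10 counts a library, and did not pass the filter.

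Both Trk receptor genes with appreciable counts have a full-length model, which carries the kinase domain, and a truncated model, which ends without it. Truncated TrkB is known as the main TrkB form of astrocytes. The transcript table holds 1 model of each kind per gene. For Ntrk2 (ENSMUSG00000055254, chr13:58907957-59235331, mm9, plus strand) the full-length model ENSMUST00000079828 has 18 exons and ends in the exon at chr13:59229529-59235331. The truncated model ENSMUST00000109838 has 13 exons and ends at chr13:59033384-59038391. For Ntrk3 (ENSMUSG00000059146, chr7:85337248-85723294, mm9, minus strand) the models are ENSMUST00000039431 with 17 exons and ENSMUST00000039438 with 14. The sequences on both sides of the junction, where the models part, are shown because the read counts that follow rest largely on it. They are from the GENCODE M21 transcripts of the same identifiers (GRCm38), 5′ to 3′ on the gene's strand, with the last 24 shared bases in lower case and the bases of that model only in capitals.
Ntrk2 full-length: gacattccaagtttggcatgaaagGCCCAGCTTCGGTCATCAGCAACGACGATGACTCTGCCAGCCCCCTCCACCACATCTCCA
Ntrk2 truncated: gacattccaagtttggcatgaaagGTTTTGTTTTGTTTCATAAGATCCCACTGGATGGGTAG
Ntrk3 full-length: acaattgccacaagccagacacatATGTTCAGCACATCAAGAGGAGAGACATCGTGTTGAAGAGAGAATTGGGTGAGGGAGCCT
Ntrk3 truncated: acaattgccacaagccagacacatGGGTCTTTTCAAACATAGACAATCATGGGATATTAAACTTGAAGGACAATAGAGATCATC
The capitals of the truncated Ntrk2 sequence run to its stop codon, 38 coding bases after the junction, whereas 1073 coding bases follow it in the full-length transcript. In truncated Ntrk3, 254 coding bases follow the junction, against 893 in the full-length transcript.

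At the gene level Ntrk2 was highest after birth and lowest in MB. It read 231, 282 and 166 CPM at E15.5, 275, 318 and 388 at P1, 354, 297 and 340 at P7, and 459, 359 and 345 at P14. The tumour libraries read 136, 105 and 122 CPM. All MB libraries were below all others, while neighbouring ages overlapped. P14 was 1.71-fold above E15.5 (log2 fold change 0.78, FDR 0.00598), with the groups apart; inside 1 counting set, against E15.5 replicate 2 alone, this was 0.46 and did not pass. P1 was called above E15.5 (log2 fold change 0.53, SE 0.21, FDR 0.0468), with overlapping groups. That call was lost without P1 replicate 3 (0.39), without E15.5 replicate 3 (0.30), and without E15.5 replicate 1 or P1 replicate 2 (0.55 each). Inside 1 counting set, against E15.5 replicate 2 alone, the highest Ntrk2 library of its age, the difference was 0.22 and was not called. The call was also lost in a fit of the 2 groups alone (0.55), with RLE size factors (0.52) and without a filter (0.53). In P14 against E15.5, 2 of the 6 genes were called higher and 1 lower, beside 26.7% and 24.2% of all genes. MB was 2.72-fold below P7 (log2 fold change -1.44, SE 0.21, FDR 8.31e-05) and 3.19-fold below P14 (log2 fold change -1.67, SE 0.21, FDR 1.40e-05).

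The 2 Ntrk2 models moved apart between E15.5 and P1. Reads of 1 model only were taken as the gene's count less the count over the other model, and are given as CPM per kilobase of bases in that model only, 6804 bases for the full-length and 5265 for the truncated model. Not all such bases follow the junction, since the truncated model has only its last exon of 5008 bases after it. The part of the earlier bases in the levels and ratios was not tested. Truncated-only reads stood at 5.75, 4.62 and 3.47 CPM per kilobase at E15.5 and at 19.8, 24.3 and 27.4 at P1. Full-length-only reads stood at 18.3, 23.8 and 8.83 at E15.5 and at 8.02, 6.46 and 14 at P1, with overlap. The truncated-only level was thus higher in every P1 library than in any E15.5 library.

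The ratio of full-length-only to truncated-only level was 3.19, 5.15 and 2.55 in the E15.5 libraries. It was 0.406, 0.266 and 0.511 at P1, 0.677, 0.768 and 0.897 at P7, and 0.578, 0.594 and 0.683 at P14. E15.5 was the only group with ratios above 1. The ratio was 9.12-fold lower at P1 than at E15.5 and did not overlap, with an exact two-sided permutation p of 0.10, the smallest that 3 libraries against 3 can give (0.156 after Benjamini-Hochberg adjustment over the 14 ratio comparisons). In an edgeR fit of the whole transcript table the truncated model rose (log2 fold change 1.28, SE 0.17, FDR 4.48e-05), while the full-length model had a log2 fold change of 0.03 (SE 0.20, FDR 0.912). Across the transcript table, 45.3% of transcripts were called between E15.5 and P1. The counts over both models contain the shared bases, so these fold changes understate the difference between them. Astroglial markers rose with the truncated model: Aqp4, a water channel of astrocytes, went from 1.34 to 1.96 CPM at E15.5 to 168 to 807 CPM at P1, and Gfap, an astrocyte filament gene, from 0.473 to 1.09 CPM to 31.4 to 177 CPM. Summed oligodendrocyte markers went from between 96.5 and 121 CPM at E15.5 to between 642 and 4300 CPM at P1, and endothelial markers from between 11.2 and 30.5 CPM to between 376 and 567 CPM. Choroid plexus markers went from between 97.2 and 379 CPM at E15.5 to between 407 and 10500 CPM at P1. The part of these cell types in the change of Ntrk2 models was not tested.

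In MB the full-length-only level of Ntrk2 was 1.05, 0.650 and 1.36 CPM per kilobase, against 15.8, 13.6 and 15.8 at P7. These are 180, 181 and 231 reads in MB and 3673, 3355 and 2783 at P7. The truncated-only level was 15.4, 10.8 and 12 CPM per kilobase in MB and 23.3, 17.7 and 17.6 at P7. Both levels were lower in every tumour library than in any P7 library, the full-length one by far more. The ratio was 0.0680, 0.0600 and 0.113 in MB, a 10-fold difference from P7 and 7.98-fold from P14, with no overlap (exact two-sided permutation p = 0.10 for each, again the smallest possible). Transcript counts rescaled in each library by the gene-to-transcript ratio of Sort1 gave 0.0945, 0.0885 and 0.145. In the transcript fit both models were lower in MB than at P7, the full-length one by -2.07 (FDR 2.54e-06) and the truncated one by -0.99 (FDR 3.71e-04) on the log2 scale, where 33.5% of transcripts were called. Summed astroglial markers were lower in MB than at P7, but the list split. Aqp4 (86.0 to 122 CPM in MB, 369 to 1040 at P7), Aldh1l1, Slc1a3, Gdf10 and Fabp7 were lower in every MB library than in any P7 library. S100b (124 to 206 CPM in MB, 22.9 to 54.6 at P7) and Slc1a2 (572 to 806 in MB, 274 to 441 at P7) were higher in every MB library. Gfap (158 to 391 CPM in MB, 179 to 316 at P7), Gjb6 and Aldoc overlapped. Their part in the MB ratio was not tested.

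**Figure D2:**
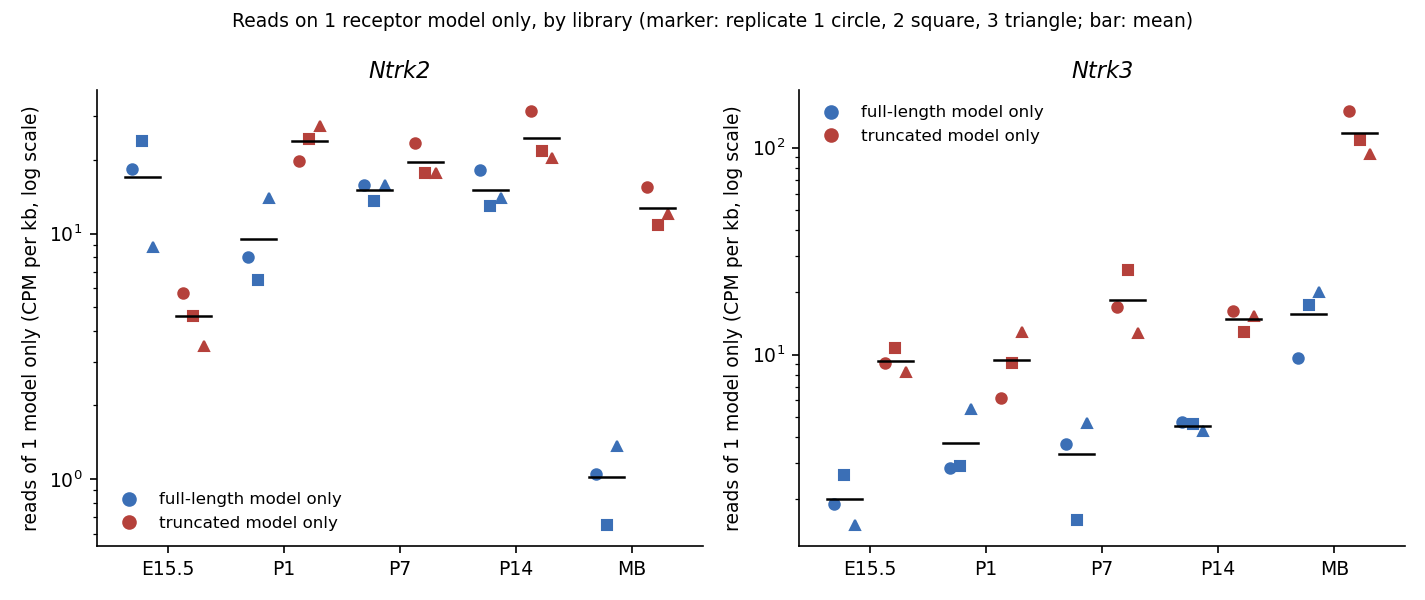
Reads that fall on the full-length model only (blue) or the truncated model only (red) of Ntrk2 and Ntrk3, in CPM per kilobase of such bases on a log scale (y axis), in each library of the 5 groups (x axis); bars are means. For Ntrk2 the full-length values lie above the truncated ones at E15.5 and far below them in MB.

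Ntrk3 was the receptor gene with the highest tumour level. It read 248, 294 and 287 CPM in MB, against 40.7, 41.6 and 44.2 CPM at P7 and 51.9, 44.1 and 47.2 at P14. No tumour library was below 248 CPM and no library of any age was above 51.9. MB was 6.56-fold above P7 (log2 fold change 2.71, SE 0.21, FDR 2.18e-07) and 5.80-fold above P14 (log2 fold change 2.53, SE 0.21, FDR 2.79e-07). With MB replicate 1 alone, inside 1 counting set, the difference from P7 was 2.55. In the transcript fit the change from P7 to MB was 2.72 for the full-length and 2.76 for the truncated model, both counts containing the same 1777 shared bases.

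Over the ages Ntrk3 read 22.6, 27.1 and 18.2 CPM at E15.5 and 25.9, 28.7 and 44.5 CPM at P1. P1 replicate 3, the P1 library with the highest astroglial and oligodendrocyte marker sums, was above its group. Neighbouring ages overlapped, while all P14 libraries were above all E15.5 libraries (log2 fold change 1.08, SE 0.20, FDR 4.62e-04). The call of P1 above E15.5 (log2 fold change 0.55, FDR 0.0357) was lost without P1 replicate 3 (0.28), without E15.5 replicate 3 (0.36) or 1 (0.55), in a fit of the 2 groups alone (0.57) and in the start site table (0.48), and the difference was 0.29, not called, inside 1 counting set, against E15.5 replicate 2 alone. Without P1 replicate 3 the rise from P1 to P14 passed, at 0.81, against 0.53 with an FDR of 0.103 over all libraries. Of all genes tested, 17.5% were called in P14 against P1 without that library and 8.94% with every library.

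The truncated-only level of Ntrk3 was above the full-length-only level in all 15 libraries. In MB the ratio of full-length to truncated was 0.0641, 0.159 and 0.214, and at P7 it was 0.219, 0.0613 and 0.368, with overlap (exact two-sided permutation p = 0.700). At P14 it was 0.289, 0.361 and 0.279, above all MB libraries (exact permutation p = 0.10). The MB reads of these models were 370, 1081 and 761 for the full-length model only and 2124, 2494 and 1309 for the truncated model only. The truncated model has only 560 bases of its own, so its level per kilobase rests on a short stretch. The full-length model has 1523, more than its 893 coding bases after the junction and its last exon of 383 bases together. Some of its own bases therefore lie before the junction.

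Ngfr, the p75 receptor gene (ENSMUSG00000000120, chr11:95430132-95449049, mm9, minus strand), was raised at P1 and P7 and low at both ends of the age series. It read 29.3, 33.7 and 28.5 CPM at E15.5 and 114, 93.0 and 44.2 at P1. At P7 it read 66.8, 52.9 and 91.6 CPM, and at P14 it read 22.5, 20.9 and 29.0. The P1 and P7 libraries were all above the E15.5 and P14 libraries, with P1 replicate 3 the lowest of them, while E15.5 overlapped P14 and P1 overlapped P7. Ngfr rose 2.75-fold from E15.5 to P1 (log2 fold change 1.46, SE 0.36, FDR 0.00422).

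The later fall of Ngfr was the only call among the 6 genes in P14 against P7 (log2 fold change -1.55, SE 0.36, FDR 0.0189), where 4.51% of all genes were called lower and 5.81% higher. It was also the only one in P14 against P1 (log2 fold change -1.80, SE 0.36, FDR 0.0114), where 5.31% of all genes were called lower and 3.63% higher. In P7 against P1 edgeR called 0 of the 6, with 0 at an unadjusted p under 0.05 and 0 by DESeq2, beside 1.40% of all genes called higher and 1.74% lower. Both falls lost their calls when single libraries were left out, with little change in size. Against P7 the values were -1.72 and -1.31 without P7 replicates 2 and 3 and -1.50 and -1.45 without P14 replicates 1 and 2, at FDRs of 0.0528 to 0.0911. Against P1 they were -1.51 and -1.72 without P1 replicates 1 and 2 and -1.75 and -1.70 without P14 replicates 1 and 2. The groups did not overlap in either comparison.

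In MB the Ngfr libraries read 50.3, 130 and 125 CPM, replicate 1 being far below the others. All 3 were above every P14 library, by 4.24-fold at the mean (log2 fold change 2.08, SE 0.37, FDR 2.56e-04). Against P7 the groups overlapped and the difference of 0.54 did not pass (95% interval -0.22 to 1.29, FDR 0.268). It passed without MB replicate 1 (0.86) and was -0.49 with MB replicate 1 alone, inside 1 counting set. Ngfr is also known in perivascular and meningeal cells. The summed markers of pericytes and fibroblasts, 8 of 8 detected, were 25.9 to 40.2 CPM at E15.5, 712 to 1030 at P1, 413 to 676 at P7, 905 to 1060 at P14 and 46.5 to 59.5 in MB. Their part in the Ngfr levels was not tested.

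Sort1 (ENSMUSG00000068747, chr3:108087009-108164429, mm9, plus strand) changed least over the ages. It read 297, 284 and 194 CPM at E15.5, 215, 201 and 242 at P1, 291, 268 and 275 at P7, and 274, 223 and 235 at P14. Only P7 and P1 did not overlap, and the test over the 4 ages did not pass (FDR 0.344). Without E15.5 replicate 3 the step from E15.5 to P1 was called, at -0.46 on the log2 scale. In MB it read 128, 157 and 145 CPM, below every library of the age series. MB was 1.94-fold below P7 (log2 fold change -0.95, SE 0.18, FDR 5.89e-04) and 1.70-fold below P14 (log2 fold change -0.77, SE 0.17, FDR 0.00197).

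**Figure D3:**
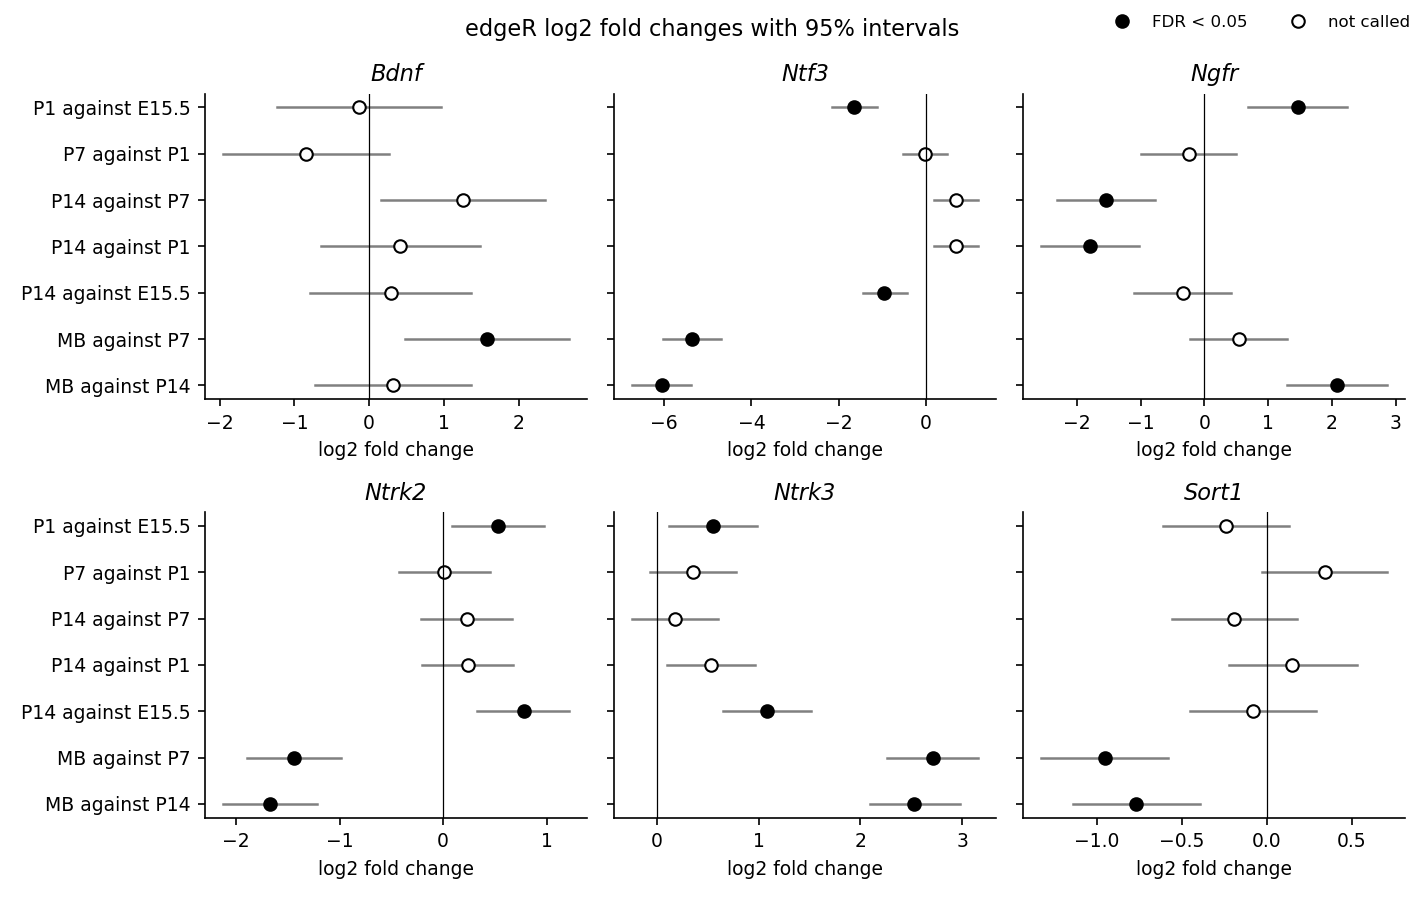
edgeR log2 fold changes (x axis) of the 6 genes in 7 comparisons of groups (y axis), with lines for 95% intervals; filled points have an FDR under 0.05. Ntf3 in MB lies at -5.36 and -6.06, and Ntrk3 in MB at 2.71 and 2.53.

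The order of the groups by mean level differed between the genes. For Ntf3 it was E15.5, P14, P1, P7 and MB, where only P1 and P7 overlapped. For Ntrk3 it was MB, P14, P7, P1 and E15.5, where only MB was apart from its neighbour. For Ngfr it was MB, P1, P7, E15.5 and P14, with a gap between P7 and E15.5 alone. For Ntrk2 it was P14, P7, P1, E15.5 and MB, and for Sort1 P7, E15.5, P14, P1 and MB, and in both only MB was apart. For Bdnf it was MB, P14, E15.5, P1 and P7, with P7 alone not overlapping its neighbour.

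The genes most like each of the 6 over the 15 libraries were found by Pearson's r of log2 CPM among 11576 genes that averaged 5 CPM or more. The libraries share their groups and depth, so these values are a description of 5 groups more than of 15 points. Ntf3 was followed by Ralyl (r = 0.995), Rab9b (0.993) and Lrrc75b (0.987). Ntrk3 was followed by Tshz3 (0.988), Fbxo32 (0.985) and Sfrp1 (0.974). Ntrk2 was followed by Cpeb2 (0.988) and Rgs7bp (0.980). Ngfr was followed by Ddx11 (0.950), Rad54l (0.918) and Ung (0.909), and Sort1 by Nt5dc3 (0.952), Map1a (0.951) and Csmd2 (0.948). For Bdnf, with its low counts, the highest value was 0.811, for Pramef8, before Cdc42ep4 (0.795) and Rnf123 (0.755).

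Genes that act on the precursors and their release came next along the pathway. The list held prohormone convertases, the plasmin and matrix protease genes, and the secretion factors Cadps and Cadps2, and 12 of its 16 genes were tested. From E15.5 to P1, 5 of the 12 rose and 0 fell by edgeR, beside 25.4% of all genes higher and 20.9% lower, with 1 lower at an unadjusted p under 0.05 (median log2 fold change -0.06, beside 0.03 over all genes). Plat, which encodes tissue plasminogen activator, rose by 2.30 on the log2 scale (FDR 1.72e-06). The count of genes that fell was 1 with DESeq2 and without E15.5 replicate 3 or P1 replicate 1, and 2 without P1 replicate 3. Of all genes tested, 39.2%, 40.6% and 40.1% were called without these 3 libraries in turn, beside 46.3% in the main fit.

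In MB against P7, 1 gene of this processing and release list was higher and 5 of the 12 were lower (median -0.30, beside 0.02), where 13.7% of all genes were higher and 20.7% lower. In MB against P14 edgeR called 0 higher and 6 lower (median -0.82, beside 0.01), where 22.9% of all genes were higher and 27.2% lower, with 1 higher at an unadjusted p under 0.05 and 1 by DESeq2. Cadps2, whose product promotes the release of BDNF and NT-3 from dense-core vesicles of granule cells, had the largest fall of the list. Its mean level was 538 ± 46.6 CPM at P7, 489 ± 15.7 at P14 and 38.3 ± 7.74 in MB (SD, n = 3), a log2 fold change of -3.81 from P7 (SE 0.22, FDR 1.75e-08) and -3.68 from P14 (FDR 2.49e-08). Pcsk5, a convertase gene, was lower by -2.29 (FDR 2.95e-04) and Plat by -1.53 (FDR 5.14e-05) than at P7. Plat is also known in endothelium. Summed endothelial markers, 6 of 6 detected in every library, were 285 to 348 CPM at P7, 691 to 725 at P14 and 17.6 to 31.5 in MB, and their part in the Plat levels was not tested. The 1 gene higher in MB than at P7 was the convertase gene Pcsk2 (0.81, FDR 0.0311). Its call was lost when MB replicate 2 (0.41) or 3 (0.82) or P7 replicate 1 (0.76) or 2 (0.78) was left out, and it was -0.12 inside 1 counting set.

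The partners of p75 and sortilin, 12 tested genes for the Sorcs receptors, Sorl1, the Nogo receptor complex and p75-binding proteins, changed in both directions. In P1 against E15.5, 8 of 12 were lower and 2 higher (median -0.95), beside 20.9% of all genes lower and 25.4% higher. In P14 against E15.5, 8 were lower and 1 higher (median -0.97), beside 24.2% and 26.7% of all genes. Sorcs3, a sortilin relative, fell from 13.9 ± 2.20 CPM at E15.5 to 1.71 ± 0.144 at P14 (log2 fold change -3.03, FDR 5.95e-07). Its relative Sorcs1 fell from 82.1 ± 29.5 to 12.1 ± 2.26 CPM (log2 fold change -2.76, FDR 3.19e-06). The higher genes at P1 were Sorl1 and Traf6. Both lost the call without E15.5 replicate 3 (1.52 and 0.65), and Sorl1 lost it without P1 replicate 3 (0.71). Against E15.5 replicate 2 alone, inside 1 counting set, the Sorl1 difference was 1.49 and was not called.

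In MB the same list was mixed, with 4 of 12 genes higher and 2 lower than P7, beside 13.7% and 20.7% of all genes, and 5 higher and 2 lower than P14, beside 22.9% and 27.2%. Sorcs1 was lower than at P7 (log2 fold change -2.37, FDR 1.89e-05) and P14 (-1.53, FDR 4.65e-04), at 4.18 ± 1.15 CPM. Sorcs2, whose product pairs with p75 as a receptor for pro-BDNF, was higher than at P14 (2.37, FDR 2.01e-04) and P7 (1.92, FDR 0.00152). Rtn4r, the Nogo receptor gene, was higher by 2.20 (FDR 5.87e-04) than P14 and by 2.22 (FDR 8.71e-04) than P7. With MB replicate 1 alone, inside 1 counting set, Sorcs2 was at 0.86 and Rtn4r at 0.38 against P7, both not called.

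Calls among adaptors and kinases downstream of Trk receptors went in both directions, as did those over all genes. Of 26 tested, 5 were higher and 7 lower in P1 against E15.5 (median 0.00, beside 0.03), where 25.4% of all genes were higher and 20.9% lower. In MB against P7, 4 were higher and 3 lower (median 0.14, beside 0.02), where 13.7% of all genes were higher and 20.7% lower. In MB against P14, 6 were higher and 4 lower (median 0.27, beside 0.01), where 22.9% of all genes were higher and 27.2% lower. In P7 against P1 the median was 0.33, beside -0.01, with 1 gene higher. Mapk3, which encodes the kinase ERK1, fell by 2.32 on the log2 scale from E15.5 to P1 (FDR 1.76e-06). Shc1, an adaptor gene, rose by 1.34 (FDR 4.41e-05). In MB, Akt1, a survival kinase gene, was higher than at P7 (1.01, FDR 0.00107), and Gab1, a docking protein gene, was lower (-1.68, FDR 5.18e-05). The count of lower genes at P1 was 11 without E15.5 replicate 3, where 39.2% of all genes were called, beside 46.3% in the main fit. That of genes higher in MB than at P7 was 1 without P7 replicate 2 or MB replicate 2 and 2 without MB replicate 3. Of all genes tested, 31.0%, 30.1% and 31.6% were called there, beside 34.5% in the main fit.

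The list of Trk-responsive genes held 14 immediate-early and feedback genes that other signals also induce. In P1 against E15.5, 8 of the 14 rose and 0 fell by edgeR (median 1.19), beside 25.4% of all genes higher and 20.9% lower, while 1 was lower at an unadjusted p under 0.05 and 1 by DESeq2. Fos and Egr2 changed most, with Fos going from 16.5 ± 15.9 to 526 ± 183 CPM (log2 fold change 5.02, FDR 1.96e-04) and Egr2 from 1.03 ± 1.23 to 28.3 ± 5.79 CPM (log2 fold change 5.12, FDR 2.91e-04). In P14 against E15.5, 9 rose and 1 was lower (median 1.5), beside 26.7% and 24.2% of all genes. The lower gene, Nptx2 (-0.75, FDR 0.0377), which encodes a neuronal pentraxin, lost the call when E15.5 replicate 1 (-0.73) or 2 (-0.75) or P14 replicate 1 (-0.69) or 2 (-0.68) was left out. The call was also lost under the replicate block (-0.75), upper-quartile scaling (-0.65) and against E15.5 replicate 2 alone, inside 1 counting set (-0.75). In MB against P14, edgeR called 0 higher and 7 lower (median -0.73), beside 22.9% and 27.2% of all genes, with 1 higher at an unadjusted p under 0.05 and 1 by DESeq2. The lower genes included Npas4 (log2 fold change -2.30, FDR 0.00547) and Fos (-2.28, FDR 0.0159). Against P7 Vgf (-1.29) and Homer1 (-0.69) were called lower, and 0 of the list higher by edgeR, at an unadjusted p under 0.05 or by DESeq2. Of all genes, 13.7% were higher and 20.7% lower there. That count of 2 was 1 without any single P7 library, MB replicate 1 or MB replicate 3, and was 0 in a fit of the 2 groups alone. Of all genes tested, 25.1% were called in that fit, beside 34.5% in the main fit. With 1 library left out the share ran from 28.3% to 37.8%. The count of lower genes was 3 under the replicate block, where 32.4% of all genes were called. It was also larger inside 1 counting set, which rests on MB replicate 1 alone against P7.

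**Figure D4:**
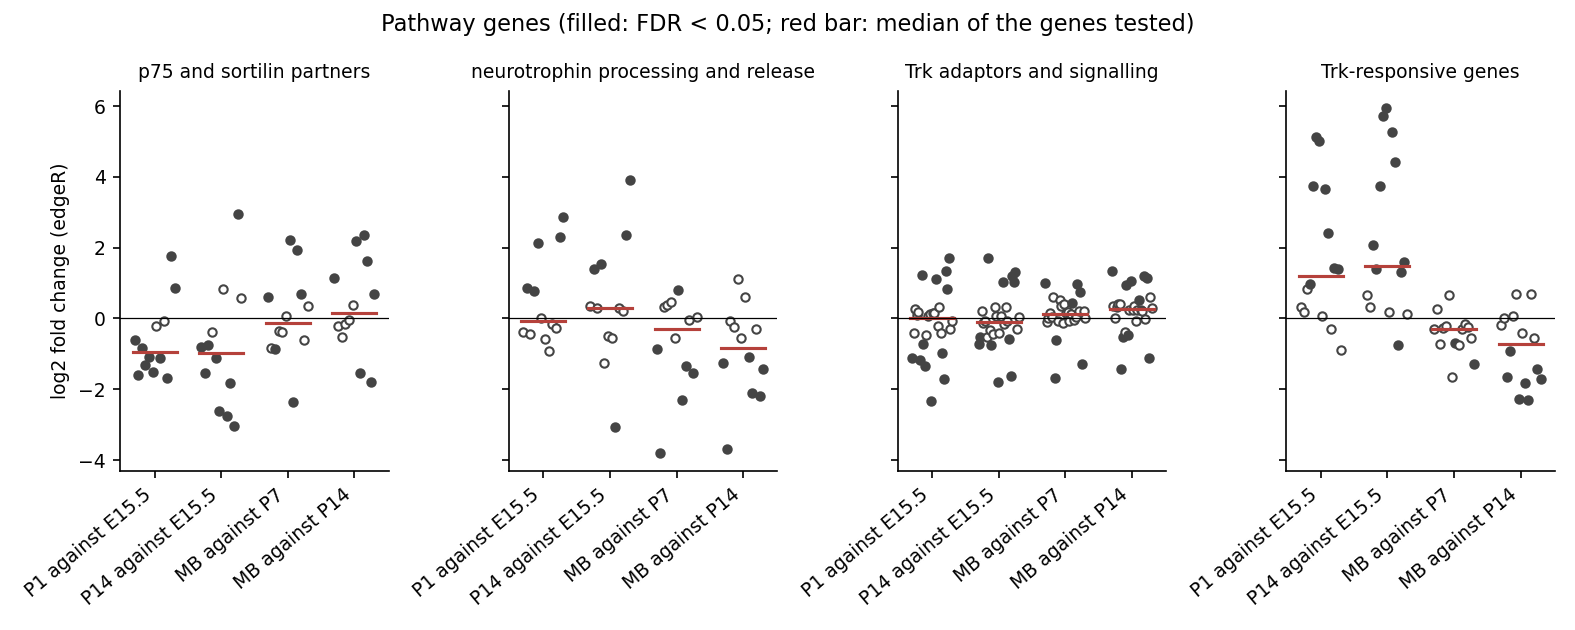
edgeR log2 fold changes (y axis) of the genes of 4 pathway lists in 4 comparisons (x axis); filled points have an FDR under 0.05 and red bars are the medians of the genes tested. The Trk-responsive genes have medians of 1.19 and 1.5 after E15.5, and Cadps2 is the lowest point of the processing list in MB, at -3.81 and -3.68.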

How the data were processed

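The authors deposited 3 tables of raw counts per library (per gene, per transcription start site model and per transcript), none of them normalized. The submitters' processing notes name Trimmomatic, TopHat, StringTie, HTSeq and the build mm9; versions and the strand setting are not given in the sources used here. Reads that touch overlapping or antisense genes may therefore be assigned either way. Between 39.5% and 55.4% of a library's records were counted in genes; summary lines were left out. Symbols matched 20358 of 21889 genes.

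Counts were tested with edgeR 4.0.16 in R 4.3.3: filterByExpr (minimum count 10, minimum total 15), TMM scaling, quasi-likelihood fits of the 5 group means to all 15 libraries (10 residual degrees of freedom) and Benjamini-Hochberg adjustment over 15259 genes. CPM use TMM library sizes. Model-only reads combine the gene and transcript tables; their log2 ratios were compared by exact permutation. The method was tested on simulated data.

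The members and lists were chosen with earlier results of these data known. Named are the 6 genes, at most 2 called genes per direction, list and comparison, and the 3 genes most like each member; some genes under this rule are not reported here. Alternatives were DESeq2 1.42.0, other scalings, filters and tables, the fit of compared groups alone, a replicate block, a single counting set and leaving out each library. The counts over lists, the transcript fit and the rescaled ratios were added after the data were seen. Ngfrap1 and Serpini1 were not found by symbol, and Plg, Mmp3 and Mmp7 were under the filter.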

Additional observations from a re-analysis of the deposited data

How the results depend on the processing

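Of the fold changes of the 6 genes under the alternatives, 583 kept direction and side of the threshold, 30 lost a call, 9 gained one and 17 changed sign; the cause was not tested. The number of the 6 genes called between E15.5 and P1, 4, was 2 with a replicate block and 2 in a fit of the compared groups alone. Of all genes tested, 44.1% and 44.0% were called there, beside 46.3% in the main fit. For P14 against P7, 1 became 3 in the groups-alone fit and 2 with DESeq2. Of all genes, 25.9% were called in that groups-alone fit, beside 10.3% in the main fit. DESeq2 called 2418 of 21889 genes there, beside 1574 of 15259 in the main fit. For P14 against P1, 1 became 2 with DESeq2 and 2 inside 1 counting set. DESeq2 called 2407 of 21889 genes there, beside 1364 of 15259 in the main fit. Inside 1 counting set 18.2% of all genes were called, beside 8.94%. Leaving out 1 library gave 2 to 4 for P1 against E15.5, 3 to 3 for P14 against E15.5, 0 to 0 for P7 against P1, 0 to 3 for P14 against P1, 0 to 1 for P14 against P7, 4 to 6 for MB against P7, 5 to 5 for MB against P14 and 3 to 4 for the 4 ages. The share of all genes called moved as well. It ran from 36.6% to 44.5% for P1 against E15.5 and from 41.9% to 49.1% for P14 against E15.5. For P7 against P1 it was 0.0581% to 5.73%, for P14 against P1 0.997% to 17.5% and for P14 against P7 0.809% to 6.96%. For MB it was 28.3% to 37.8% against P7 and 41.8% to 50.4% against P14.

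Signs changed as follows, with all but Pcsk2 and Sh2b2 among differences that were not called. Ntrk2 in P7 against P1, at 0.01, was -0.01 with RLE size factors, -0.09 with upper-quartile scaling, -0.21 in the transcript table and -0.00 with DESeq2, and ran from -0.09 to 0.16 with 1 library left out. Ntf3 in P7 against P1, at -0.01, was 0.00 without a filter and ran from -0.18 to 0.26 with 1 library left out, and Ngfr there ran from -0.56 to 0.04. With upper-quartile scaling, which moved the median of all genes in P1 against E15.5 to 0.17, Bdnf was 0.01 in P1 against E15.5 and Sort1 0.01 in P14 against E15.5; the latter ran from -0.32 to 0.03 with 1 library left out. In MB against P7, Ngfr was -0.49, Pcsk2 -0.12 and Sh2b2 -0.13 inside 1 counting set. In MB against P14, Bdnf ran from -0.72 (without MB replicate 2) to 0.71 with 1 library left out. The log2 ratio of Ntrk3 models in MB against P7 ran from -1.13 to 0.16 with 1 library left out.

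Replicate numbers did not pair libraries: of 30 same-numbered pairs, 7 had a correlation of deviations over 0.1 (range -0.31 to 0.33). The replicate block lost the calls of Ntrk2 (0.54) and Ntrk3 (0.54) in P1 against E15.5 and no other call of the 6 genes. No value inside 1 counting set could be had for P7 against P1 or P14 against P7, which lie in different sets. The start site table matched only Bdnf, Ntrk3 and Sort1, so no count was made from it. Depth limits Bdnf, with at most 179 counts, and Ntf3 in MB, with at most 11.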
